A study of Helianthus annuus with 12 samples.

Results

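The GDSL lipases and SGNH esterases of developing sunflower seed were followed through seed RNA sequencing of the Helianthus annuus cultivars 86-1 and L-1-OL-1. A gene was taken as a member when its deposited description held the word GDSL or SGNH and its FPKM (fragments per kilobase of gene, scaled to the size of the library) was at least 1 in 3 or more of the 12 libraries. This gave 78 genes of the 30020 that passed the same filter and of the 48882 in the expression table. The libraries were made from seeds of 86-1 at 27 days after flowering (DAF), 86-1 at 17 DAF, L-1-OL-1 at 27 DAF and L-1-OL-1 at 17 DAF, with 3 libraries per group and no treatment named for any of them. The labels place 17 DAF in the phase of fast oleic acid accumulation and 27 DAF in the phase when it had levelled off. The series contrasts high and low oleic acid sunflower, but no label ties either content to a cultivar. Separate plants behind the libraries of a group are not named either, so p-values cover library-to-library spread, which may be technical.

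GDSL enzymes are named for the Gly-Asp-Ser-Leu motif around their catalytic serine, and SGNH for the conserved serine, glycine, asparagine and histidine residues of the same fold. Plants hold large families of them, and they cut, or in some cases form, ester bonds in lipids, cell wall acetyl groups and phenolic esters. In tomato a GDSL enzyme of the fruit surface links the monomers of cutin, in rapeseed one splits sinapine esters of the seed, and in Arabidopsis several seed-expressed members lower the fatty acid content of the seed. The deposited descriptions name the enzyme class only, so no substrate is assigned to any sunflower gene here.

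Of the 78 genes, 43 were described as SGNH hydrolase-type esterase domain-containing proteins and 4 as members of the SGNH esterase superfamily. Another 31 carried the word GDSL, 26 of them as GDSL-like lipase/acylhydrolase superfamily proteins. The descriptions of the other 5 read GDSL-motif lipase 5 (gene13262), GDSL-like lipase/acylhydrolase family protein (gene18733), GDSL esterase/lipase (gene56429), and GDSL esterase/lipase At5g62930-like and At5g42170-like (Helianthus_annuus_newGene_10965 and Helianthus_annuus_newGene_3957). The match to the database protein ran over a median of 362 residues (79 to 413). It covered 300 to 400 residues in 59 genes and fewer than 250 in 9. It was identical in 63 genes. Only 2 database proteins were the best match of more than 1 member: gene53121 (100% identity) shared its match with gene16652 (84.73%), and gene80179 (100%) shared its match with gene80180 (94.15%). Reads of close relatives may have been split between such members, by a rule the labels leave unnamed.

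A further 63 genes with these words were in the expression table but below the filter, and 32 described genes were not in it. Of the members, 13 reached 1 FPKM in exactly 3 libraries, with a third-highest value of 1.07 to 11.4 FPKM. Of the genes left out, 5 reached it in exactly 2 libraries, with a third-highest value of 0.371 to 0.868 FPKM. There were 11 members that reached 1 FPKM in 1 group only (8 for 86-1 at 17 DAF, 1 for 86-1 at 27 DAF and 2 for L-1-OL-1 at 17 DAF). Such genes passed the filter through the group in which they were high. They include gene15891, gene15892 and gene18733, whose levels in 86-1 at 17 DAF are therefore given without a test. The counts of called members below keep all 11, and the counts over all tested genes keep genes that passed in the same way.

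FPKM totals ran from 605655 to 683903 per library. Read numbers are unknown. Steps between low values give relative depths of 0.796 to 1.22, with replicate 1 of 86-1 at 17 DAF set to 1. Genes of seed storage and oil body proteins (46 tested) took 12.1% to 23.9% of the FPKM total in 86-1 at 27 DAF, 6.94% to 21.9% for 86-1 at 17 DAF, 2.86% to 3.62% for L-1-OL-1 at 27 DAF and 3.17% to 21.2% for L-1-OL-1 at 17 DAF. Markers of green tissue (63 genes) took 0.0219% (replicate 1), 0.139% (replicate 2) and 0.158% (replicate 3) for L-1-OL-1 at 17 DAF, and 0.0183% to 0.0782% in the other groups. The words chosen for endosperm and seed coat matched 0 tested genes. Replicate 1 stood apart from its group in both cultivars at 17 DAF. Over all tested genes replicate 1 of L-1-OL-1 at 17 DAF had Pearson's r of 0.833 to 0.860 with 86-1 at 17 DAF, against 0.861 and 0.784 with replicates 2 and 3 of its own group (across genes, which are not independent replicates). Over the 78 genes r was 0.320 to 0.641 with 86-1 at 17 DAF and 0.832 and 0.720 with its own group.

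As a family, the GDSL and SGNH genes were lowest in L-1-OL-1 at 27 DAF. Their FPKM summed to 1004, 1116 and 1440.3 in the 3 libraries of 86-1 at 27 DAF, 1052, 1572 and 1762 for 86-1 at 17 DAF, 309, 345 and 315 for L-1-OL-1 at 27 DAF, and 1005, 1425 and 1224 for L-1-OL-1 at 17 DAF. All 3 libraries of L-1-OL-1 at 27 DAF lay below the other 9, which overlapped each other. In share of the FPKM total this was 0.154% to 0.213% for 86-1 at 27 DAF, 0.163% to 0.267% for 86-1 at 17 DAF, 0.0499% to 0.0569% for L-1-OL-1 at 27 DAF and 0.152% to 0.224% for L-1-OL-1 at 17 DAF. The number of members at 1 FPKM or more was 59 ± 2.65, 66 ± 2 and 25.7 ± 3.51 for 86-1 at 27 DAF, 86-1 at 17 DAF and L-1-OL-1 at 27 DAF, and 59.3 ± 4.04 for L-1-OL-1 at 17 DAF (SD, n = 3 each). In libraries of seeds made up of several tissues, fewer cells of a type and less RNA per cell cannot be told apart, and FPKM are shares of a library, not amounts per seed.

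**Figure D1:**
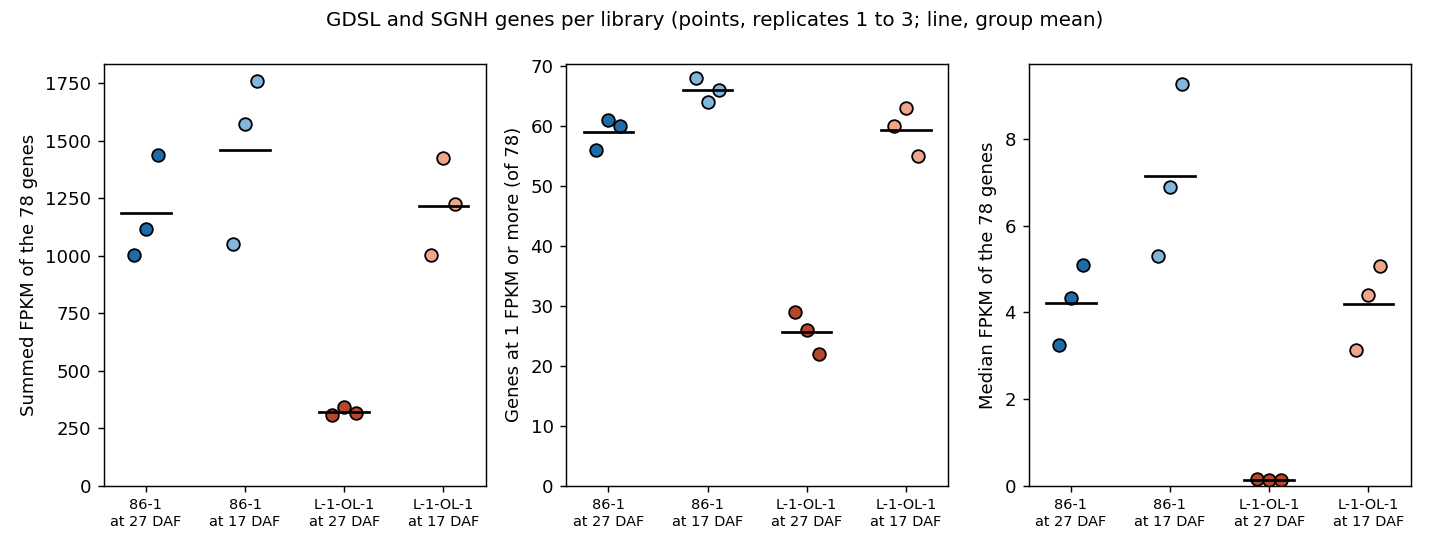
Summed FPKM (left), number of genes at 1 FPKM or more (middle) and median FPKM (right) of the 78 GDSL and SGNH genes in each of 12 libraries, with points for replicates 1 to 3 from left to right and a line at the group mean. The 3 libraries of L-1-OL-1 at 27 DAF, at sums of 309 to 345 FPKM, lie below the other 9 in each panel.

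A few genes carried a large part of the family's signal. The 5 highest members made up 46.2% to 73.4% of the sum in a library, and the median of the 78 genes was 3.25 to 5.10 FPKM for 86-1 at 27 DAF, 5.29 to 9.27 for 86-1 at 17 DAF, 0.123 to 0.156 for L-1-OL-1 at 27 DAF and 3.12 to 5.08 for L-1-OL-1 at 17 DAF. The mean over 12 libraries ran from 0.689 to 182 FPKM, with a median of 5.09, close to the 5.10 of all tested genes. It reached 10 in 24 members. In 17 members every library was at 1 FPKM or more.

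The members peaked in different groups. The group mean was highest in 86-1 at 27 DAF for 10 members, in 86-1 at 17 DAF for 42, in L-1-OL-1 at 27 DAF for 6, while L-1-OL-1 at 17 DAF led for 20. Over all tested genes these groups held the highest mean of 9.74%, 32.2%, 37.3% and 20.8% of genes. All 3 libraries of L-1-OL-1 at 27 DAF were below all 9 others for 45 of 78 members (57.7%), against 18.9% of all tested genes. In that group 46 members (59%) were under 1 FPKM in all 3 libraries, against 19.9% of all tested genes, and 19 were listed at 0 in all of them. The corresponding numbers under 1 FPKM were 16 members in 86-1 at 27 DAF, 9 for 86-1 at 17 DAF and 13 for L-1-OL-1 at 17 DAF (14.9%, 12.4% and 9.65% of all tested genes). Across the 78 genes, libraries of 86-1 at 27 DAF had Pearson's r of 0.591 to 0.746 with L-1-OL-1 at 17 DAF and 0.379 to 0.754 with 86-1 at 17 DAF. Replicate 1 of 86-1 at 17 DAF gave the highest values of the second range (across genes of the same libraries, a description only).

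**Figure D2:**
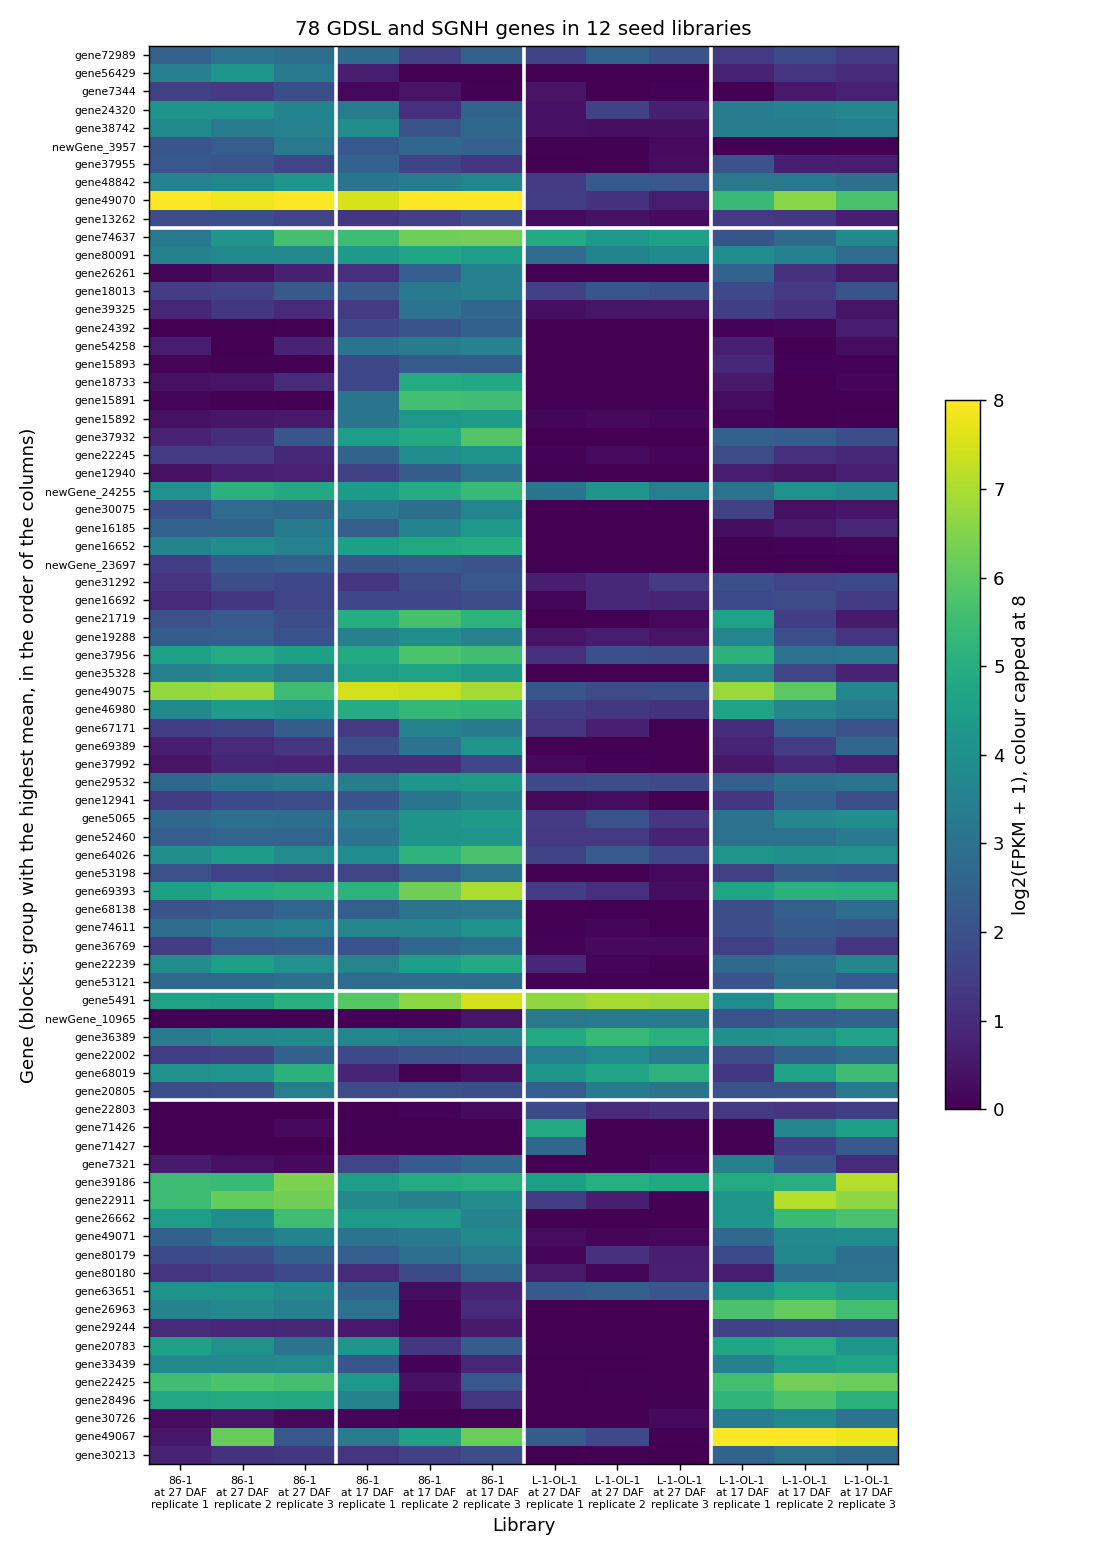
log2(FPKM + 1) of the 78 genes (rows) in 12 libraries (columns, by group), with colours capped at 8 and rows in blocks by the group of the highest mean: 10, 42, 6 and 20 genes from top to bottom. Most rows are dark in the 3 columns of L-1-OL-1 at 27 DAF, where 46 genes were under 1 FPKM in every library.

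The gene with the highest mean, gene49070 (SGNH, matched over 270 residues), had 318, 227 and 573 FPKM for 86-1 at 27 DAF, 182, 378 and 312 for 86-1 at 17 DAF, 1.76, 1.25 and 0.517 for L-1-OL-1 at 27 DAF and 40.8, 94.2 and 51.4 for L-1-OL-1 at 17 DAF. It was the leading member in all 6 libraries of 86-1, and both cultivar comparisons were free of overlap. The second, gene49067 (SGNH, 292 residues), had 0.429, 69.5 and 3.51 FPKM for 86-1 at 27 DAF, 9.2, 22.9 and 73.2 for 86-1 at 17 DAF, 4.17, 2.41 and 0.0265 for L-1-OL-1 at 27 DAF and 257, 401 and 223 for L-1-OL-1 at 17 DAF. It led the family in all 3 libraries of L-1-OL-1 at 17 DAF and varied widely within both groups of 86-1. The third, gene49075 (SGNH, 268 residues), had 105, 113 and 44.5 FPKM for 86-1 at 27 DAF, 174, 159 and 121 for 86-1 at 17 DAF, 3.41, 2.63 and 2.74 for L-1-OL-1 at 27 DAF and 111, 61.9 and 11.7 for L-1-OL-1 at 17 DAF. It was again lowest in L-1-OL-1 at 27 DAF, and the libraries of L-1-OL-1 at 17 DAF were spread widely.

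The fourth highest, gene5491 (GDSL, 371 residues), had its highest levels in 86-1 at 17 DAF and L-1-OL-1 at 27 DAF. It had 23.2, 22.6 and 32.7 FPKM for 86-1 at 27 DAF, 59, 98 and 175 for 86-1 at 17 DAF, 100.2, 121 and 113 for L-1-OL-1 at 27 DAF and 13.9, 39.8 and 55.1 for L-1-OL-1 at 17 DAF, and was the leading member in every library of L-1-OL-1 at 27 DAF. The fifth, gene39186 (GDSL), had 43.5, 41.8 and 85.1 FPKM for 86-1 at 27 DAF, 20.9, 29.4 and 32.3 for 86-1 at 17 DAF, 22.4, 32.1 and 27.9 for L-1-OL-1 at 27 DAF and 29.4, 31.7 and 137 for L-1-OL-1 at 17 DAF. No comparison of gene39186 passed the test, with limma adjusted p = 0.14 and 0.239 for the cultivars at 27 and 17 DAF and 0.228 and 0.185 for the stages in 86-1 and L-1-OL-1. Together with gene74637, gene36389, gene68019 and gene5491, it was 1 of the 5 members at 10 FPKM or more in all 3 libraries of L-1-OL-1 at 27 DAF (6.41%, against 24.9% of all tested genes).

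At 27 DAF the comparison asked how the family differed between the cultivars once oleic acid had levelled off. In 86-1, 48 of 78 members were higher than in L-1-OL-1 and 5 were lower (limma on log2(FPKM + 1), Benjamini-Hochberg over 30020 genes, adjusted p under 0.05). Over all tested genes 21.2% were called higher and 27.1% lower, against 61.5% and 6.41% of the members. Of the 78, 1 reached 1 FPKM in 86-1 at 27 DAF only, and some others passed through libraries of 1 cultivar. The filter may thus set part of these counts. The libraries of the cultivars did not overlap for 57 members that were above and 5 that were below in 86-1 (29.5% and 34.5% of all tested genes). The median log2 difference of the members was 1.41, against -0.12 for all tested genes. Median-of-ratios scaling shifted that of all genes to 0.07, and relative to all genes the members' median was 1.52 as deposited and 1.48 after that scaling. By description, 21 of 31 GDSL and 27 of 47 SGNH members were higher in 86-1.

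The SGNH gene49070 had 373 ± 179.5 FPKM in 86-1 against 1.18 ± 0.625 FPKM in L-1-OL-1 (log2 difference 7.36 ± 0.43, limma adjusted p = 2.56e-07). With a pseudocount of 0.1 in place of 1 its difference was 8.22, and that of gene22425 was 8.77. Several GDSL genes were well expressed in 86-1 and close to 0 in L-1-OL-1. The lipase/acylhydrolase gene22425 had 45.8, 52 and 49.1 FPKM in 86-1 against 0, 0.0421 and 0 FPKM in L-1-OL-1 (log2 difference 5.62 ± 0.68, limma adjusted p = 3.05e-05). The values of gene22911 were 44.3, 68.8 and 76 in 86-1 and 1.82, 0.599 and 0.0328 in L-1-OL-1 (log2 difference 5.23 ± 0.63, limma adjusted p = 2.83e-05). Those of gene28496 were 27.1, 28.7 and 27.6 in 86-1 and 0, 0 and 0.0369 in L-1-OL-1 (log2 difference 4.83 ± 0.63, limma adjusted p = 5.26e-05). In each of these genes every 86-1 library was above every L-1-OL-1 library. For gene26662, at 21.2, 14.8 and 45.9 FPKM in 86-1, every library of L-1-OL-1 was listed at 0 (limma adjusted p = 4.6e-06), so no fold is given. The same holds for gene33439 at 13 ± 0.573, gene56429 at 12.2 ± 4.73, gene16652 at 11.9 ± 1.94 and gene26963 at 11.3 ± 1.16 FPKM in 86-1 (limma adjusted p from 2.27e-07 to 0.000157). Of these, gene16652 reached 1 FPKM in 86-1 libraries only and passed the filter through them, so its p-value is a description only. Outside 86-1 at 27 DAF, gene56429 reached 1 FPKM in only 1 library, at 1.28 FPKM. It thus met the filter through 86-1 at 27 DAF, and its p-value is a description only as well. The abundant members gene49075 (log2 difference 4.39 ± 0.63) and gene69393 (log2 difference 3.92 ± 0.43) were also higher in 86-1 (limma adjusted p = 0.000122 and 1.27e-05).

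The 5 members that were lower in 86-1 at 27 DAF went against the rest of the family. They were gene5491, with 26.2 ± 5.67 FPKM in 86-1 against 111 ± 10.6 FPKM in L-1-OL-1 (log2 difference -2.06 ± 0.48, limma adjusted p = 0.00351), gene36389, gene22002, Helianthus_annuus_newGene_10965 and the low gene22803. The SGNH gene36389 had 8.78, 12 and 12.9 FPKM in 86-1 against 29, 39.6 and 32.7 FPKM in L-1-OL-1 (log2 difference -1.51 ± 0.25, limma adjusted p = 0.000312). The SGNH gene22002 had 1.77, 1.99 and 4.6 in 86-1 and 9.92, 13.5 and 9.37 in L-1-OL-1 (log2 difference -1.72 ± 0.33, limma adjusted p = 0.00102). The added gene model Helianthus_annuus_newGene_10965 was listed at 0 in every 86-1 library and had 8.01, 8.86 and 8.6 in L-1-OL-1 (limma adjusted p = 3.19e-07). Named after seeing its values, gene22803 was also listed at 0 in every 86-1 library and had 2.4, 0.922 and 1.22 in L-1-OL-1 (limma adjusted p = 0.000254). Helianthus_annuus_newGene_10965 and gene22803 reached 1 FPKM in L-1-OL-1 libraries only and passed the filter through them. Their p-values for the cultivars are therefore a description only. All 5 of the lower calls, and 41 of the 48 higher ones, held without any 1 library.

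**Figure D3:**
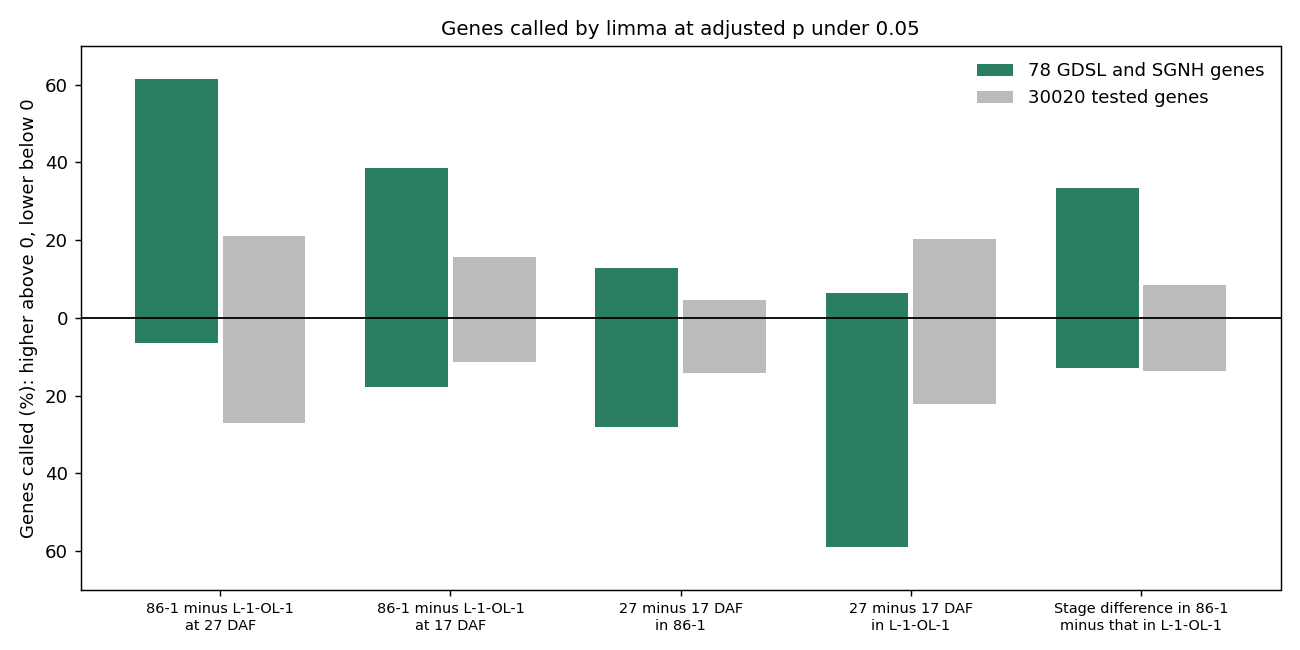
Percent of genes called higher (above 0) and lower (below 0) by limma in each comparison, for the 78 GDSL and SGNH genes (green) and all 30020 tested genes (grey). The green bars exceed the grey ones most for genes higher in 86-1 at 27 DAF (61.5% against 21.2%) and for genes lower at 27 than 17 DAF in L-1-OL-1 (59% against 22.3%).

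At 17 DAF, while oleic acid was accumulating, the family differed in both directions. In 86-1, 30 of 78 members were higher than in L-1-OL-1 and 14 were lower, which is 38.5% and 17.9%, against 15.6% and 11.4% of all tested genes. The libraries did not overlap for 29 members above and 16 below (17.7% and 13.9% of all tested genes). The median difference was 0.70, against 0.00 for all tested genes. When replicate 1 alone stood for L-1-OL-1 at 17 DAF, 21 members were higher and 9 lower (7.22% and 5.33% of all tested genes). In a fit of these 6 libraries alone 18 were higher and 12 lower (9.31% and 7.8%). Without replicate 1 of both cultivars, chosen after seeing the data, 41 were higher and 19 lower (23.1% and 18.4%). Of the called members, 20 of the 30 higher and 11 of the 14 lower held without any 1 library.

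The lipase/acylhydrolase gene16652 was among those higher in 86-1 at 17 DAF. It had 22, 28.3 and 30.01 FPKM in 86-1 against 0.0292, 0.0484 and 0.0757 FPKM in L-1-OL-1 (log2 difference 4.71 ± 0.21, limma adjusted p = 1.13e-07). It reached 1 FPKM in 86-1 libraries only and passed the filter through them, so this p-value is a description only. The SGNH genes gene15891 and gene15892 were near 0 in every other group. At 17 DAF gene15891 had 7.44, 47.1 and 45.3 in 86-1 and 0.196, 0 and 0 in L-1-OL-1. For gene15892 the values were 7.37, 18 and 19.9 in 86-1 and 0.0887, 0 and 0.0291 in L-1-OL-1. In both genes replicate 1 was the lowest of the 86-1 libraries and still above every L-1-OL-1 library. The same order held for gene18733, with 2.3, 29 and 26.6 in 86-1 and 0.462, 0 and 0.111 in L-1-OL-1, and for gene74637, with 44.1, 73.6 and 77.9 in 86-1 against 3.25, 5.59 and 13.1 FPKM in L-1-OL-1 (log2 difference 3.13 ± 0.56, limma adjusted p = 0.00115).

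The members that were lower in 86-1 at 17 DAF included several of those that were higher in it at 27 DAF. The SGNH gene26963 had 6.98, 0.0711 and 0.924 FPKM in 86-1 against 50.7, 66.6 and 46.5 FPKM in L-1-OL-1 (log2 difference -4.43 ± 0.54, limma adjusted p = 6.32e-05). The GDSL gene22425 had 18.2, 0.316 and 3.5 in 86-1 and 46.3, 77.1 and 73.2 in L-1-OL-1 (log2 difference -3.75 ± 0.68, limma adjusted p = 0.00136). The call of gene22425 was lost when replicate 1 alone stood for L-1-OL-1 at 17 DAF (limma adjusted p = 0.056). The GDSL gene28496 had 11, 0.0807 and 1.31 in 86-1 and 36.7, 51.7 and 33.5 in L-1-OL-1 (log2 difference -3.72 ± 0.63, limma adjusted p = 0.000767). In all of these, replicate 1 was the highest of the 86-1 libraries and still below L-1-OL-1.

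The spread within L-1-OL-1 at 17 DAF was larger for gene68019, an SGNH gene with 0.762, 0 and 0.193 FPKM in 86-1 against 1.47, 23.8 and 44.5 FPKM in L-1-OL-1 (log2 difference -3.46 ± 0.81, limma adjusted p = 0.00727). Its replicate 1 in L-1-OL-1 lay close to 86-1, and with that library alone the call was lost (limma adjusted p = 0.312). For gene49067, at 35.1 ± 33.7 in 86-1 and 294 ± 94.9 in L-1-OL-1 (log2 difference -3.44 ± 1.17, limma adjusted p = 0.0465), the call was lost without any 1 of 7 libraries. These were replicates 1 and 2 of 86-1 at 17 DAF, replicates 2 and 3 of L-1-OL-1 at 17 DAF, the third of 86-1 at 27 DAF and replicates 1 and 2 of L-1-OL-1 at 27 DAF (limma adjusted p from 0.0532 to 0.148). The call was also lost with a pseudocount of 0.1 (0.14), no filter on low values (0.0863), a mean FPKM of at least 5 (0.0692), median-of-ratios scaling (0.0538), the replicate block (0.0529), replicate 1 alone for L-1-OL-1 (0.3) and no replicate 1 of either cultivar (0.149).

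**Figure D4:**
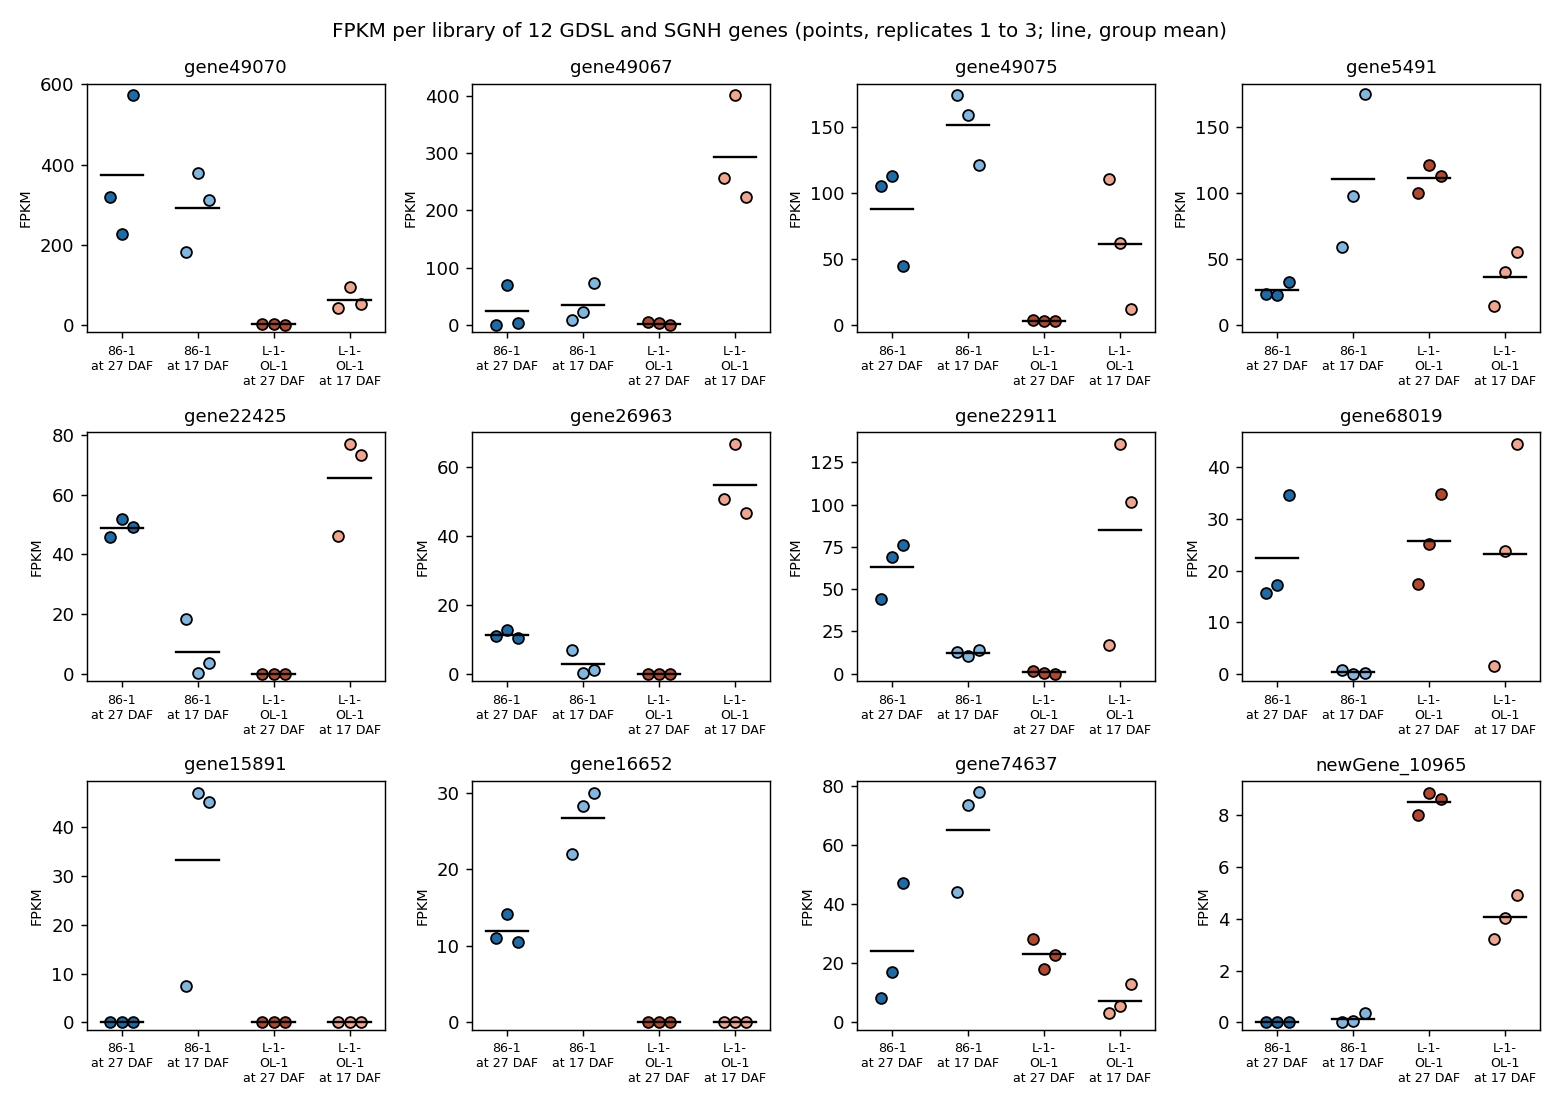
FPKM of 12 members in each library, 1 panel per gene with its own linear axis from 0, points for replicates 1 to 3 from left to right and a line at the group mean. The genes gene22425 and gene26963 are near 0 for L-1-OL-1 at 27 DAF and at or above 46.3 FPKM for L-1-OL-1 at 17 DAF, whereas gene5491 is at 100.2 to 121 FPKM for L-1-OL-1 at 27 DAF.

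The stage comparison in 86-1 asked which members changed between 17 and 27 DAF in that cultivar. At 27 DAF, 10 of 78 members were higher than at 17 DAF and 22 were lower (12.8% and 28.2%, against 4.62% and 14.1% of all tested genes). The 78 include 8 members that reached 1 FPKM in 86-1 at 17 DAF only and 1 in 86-1 at 27 DAF only. Part of these counts may thus be set by the filter. Libraries did not overlap for 13 members above and 32 below (11.2% and 22.9% of all tested genes). The median difference of the members was -0.55, against -0.20 for all tested genes. Median-of-ratios scaling and quantile normalization moved that of all genes to -0.03 and 0.00, and the members lay 0.31 and 0.33 below it. Of the called members, 7 of the 10 higher and 10 of the 22 lower held without any 1 library. The 32 calls became 19 without replicate 1 of 86-1 at 27 DAF, 17 without replicate 2 and 18 without replicate 3 of 86-1 at 17 DAF. Over all tested genes these settings called 2.84% to 3.87% higher and 6.31% to 7.25% lower. Without replicate 1 of both cultivars at 17 DAF, an alternative chosen after seeing the data, they became 49, of which 13 were higher and 36 lower. Over all tested genes that setting called 5.93% higher and 25.9% lower.

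Among the members that rose by 27 DAF in 86-1, gene68019 was at 15.7, 17.2 and 34.6 FPKM at 27 DAF and 0.762, 0 and 0.193 at 17 DAF (log2 difference 4.11 ± 0.81, limma adjusted p = 0.00488). The GDSL esterase/lipase gene56429 was at 10.2, 17.5 and 8.71 at 27 DAF and 0.609, 0 and 0 at 17 DAF (log2 difference 3.43 ± 0.27, limma adjusted p = 2.78e-05), and no library of another group had more than 1.28 FPKM of it. It met the filter through 86-1 at 27 DAF, so this p-value is a description only. The rise of gene22425 (log2 difference 3.37 ± 0.68), gene28496 (log2 difference 3.21 ± 0.63) and gene33439 (log2 difference 2.78 ± 0.44) was read against 17 DAF libraries that differed among themselves (limma adjusted p = 0.00558, 0.00451 and 0.00151). In gene33439 these were 3.37, 0.0566 and 0.815 FPKM, against 12.8, 12.5 and 13.6 at 27 DAF. Replicate 1 was the highest of the 17 DAF libraries of 86-1 in 8 of the 10 members called higher, and the lowest in all 22 called lower. Over all tested genes with these calls the shares were 52.4% and 90.3%. Storage and oil body genes took 21.9% of the FPKM total in that replicate and 7.03% and 6.94% in replicates 2 and 3. The part of this difference in the members' values was not tested.

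Among the members that fell by 27 DAF in 86-1, the SGNH gene37932 had 0.697, 1.07 and 3.28 at 27 DAF and 20.8, 28.9 and 57.4 at 17 DAF (log2 difference -3.77 ± 0.39, limma adjusted p = 0.000132). At 27 DAF gene15891 had 0.0675, 0.0389 and 0 FPKM, gene15892 had 0.281, 0.403 and 0.47 and gene18733 had 0.294, 0.328 and 0.978, all below the 17 DAF values through which they were selected. For gene21719, a GDSL gene, the values were 2.95, 3.93 and 2.77 at 27 DAF and 31, 49.8 and 35.1 at 17 DAF (log2 difference -3.21 ± 0.74, limma adjusted p = 0.0107), a call lost without replicate 2 of 86-1 at 17 DAF (limma adjusted p = 0.0518). The most abundant member, gene49070, had overlapping libraries at the 2 stages of 86-1 and did not pass (log2 difference 0.31 ± 0.43, limma adjusted p = 0.697).

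In L-1-OL-1 most of the family fell between the stages. At 27 DAF, 46 of 78 members were lower than at 17 DAF and 5 were higher (59% and 6.41%, against 22.3% and 20.4% of all tested genes). Of the 78, 2 reached 1 FPKM in L-1-OL-1 at 17 DAF only, so the filter may set part of these counts. Libraries did not overlap for 53 members below and 6 above (27.6% and 25.7% of all tested genes). The median difference was -1.29, against 0.00 for all tested genes. By description, 20 of 31 GDSL and 26 of 47 SGNH members were lower. This comparison shares the libraries of L-1-OL-1 at 27 DAF with the cultivar comparison at 27 DAF. Of the called members, 37 of the 46 lower and 2 of the 5 higher held without any 1 library. The 5 higher became 3 without replicate 2 of L-1-OL-1 at either stage. Without replicate 1 of both cultivars at 17 DAF, 47 were lower and 4 higher (28% and 18.3% of all tested genes).

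The SGNH gene49067 fell to 2.2 ± 2.08 FPKM at 27 DAF in L-1-OL-1, against 294 ± 94.9 at 17 DAF (log2 difference -6.76 ± 1.17, limma adjusted p = 0.000859). The values of gene22425 were 0, 0.0421 and 0 at 27 DAF and 46.3, 77.1 and 73.2 at 17 DAF (log2 difference -6.00 ± 0.68, limma adjusted p = 5.74e-05). Those of gene28496 were 0, 0 and 0.0369 at 27 DAF and 36.7, 51.7 and 33.5 at 17 DAF (log2 difference -5.34 ± 0.63, limma adjusted p = 6.87e-05). For gene26963, at 54.6 ± 10.6 at 17 DAF, every 27 DAF library was listed at 0 (limma adjusted p = 1.59e-05). With a pseudocount of 0.1 the differences were -8.01 for gene49067, -9.15 for gene22425 and -8.49 for gene28496. In each of these genes the libraries of the 2 stages did not overlap. For gene22911 replicate 1 was lower, with 1.82, 0.599 and 0.0328 at 27 DAF and 16.9, 136 and 101 at 17 DAF (log2 difference -5.24 ± 0.63, limma adjusted p = 7.73e-05). The abundant gene49070 (log2 difference -4.81 ± 0.43), gene69393 (log2 difference -4.04 ± 0.43) and gene49075 (log2 difference -3.51 ± 0.63) fell as well (limma adjusted p = 1.25e-05, 3.45e-05 and 0.0011).

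The 5 members that rose by 27 DAF in L-1-OL-1 were gene5491 at 111 ± 10.6 FPKM at 27 DAF and 36.3 ± 20.8 at 17 DAF (log2 difference 1.79 ± 0.48, limma adjusted p = 0.0103), gene74637, gene22002, Helianthus_annuus_newGene_10965 and gene36389. The values of gene74637 were 28.4, 18.2 and 22.9 at 27 DAF and 3.25, 5.59 and 13.1 at 17 DAF (log2 difference 1.70 ± 0.56, limma adjusted p = 0.028), a call lost without replicate 1 or 3 at 27 DAF or replicate 1 or 2 at 17 DAF (limma adjusted p from 0.0664 to 0.0854). Those of Helianthus_annuus_newGene_10965 were 8.01, 8.86 and 8.6 at 27 DAF and 3.23, 4.03 and 4.9 at 17 DAF (log2 difference 0.92 ± 0.20, limma adjusted p = 0.00366), a call lost with a pseudocount of 0.1 (limma adjusted p = 0.0921). The smaller changes of gene22002 (log2 difference 1.18 ± 0.33) and gene36389 (log2 difference 0.88 ± 0.25) passed as well (limma adjusted p = 0.0132 and 0.0131), and both were lost without replicate 2 of L-1-OL-1 at 27 DAF (0.055 and 0.0585). That of gene36389 was also lost without replicate 2 of L-1-OL-1 at 17 DAF (0.0545).

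The stage differences of the cultivars were then compared directly. For 26 of 78 members the change by 27 DAF was more positive in 86-1 than in L-1-OL-1, and for 10 it was more negative (33.3% and 12.8%, against 8.5% and 13.6% of all tested genes). The 78 keep the 11 members that reached 1 FPKM in 1 group only, so the filter may set part of these counts. The median of the members was 0.79, against -0.23 for all tested genes, and 0.97 against -0.03 with median-of-ratios scaling. Without replicate 1 of both cultivars at 17 DAF the counts were 29 and 17 (37.2% and 21.8%), against 13.9% and 22.4% of all tested genes, so the second lay at the share of all genes. Among the positive values, on the log2 scale, were those of gene22425 (9.37 ± 0.96), gene28496 (8.55 ± 0.89) and gene26963 (8.05 ± 0.76), which rose in 86-1 and fell in L-1-OL-1 (limma adjusted p = 0.000105, 0.000108 and 6.59e-05). The rise of gene26963 in 86-1 was lost without replicate 2 or 3 of 86-1 at 17 DAF (0.0531 and 0.0586). The size for gene26963 depends on the pseudocount, since it was listed at 0 in every library of L-1-OL-1 at 27 DAF. Of the negative values, that of gene5491 was -3.71 ± 0.67 (limma adjusted p = 0.00307). This gene fell in 86-1 and rose in L-1-OL-1. Its fall in 86-1 (log2 difference -1.92 ± 0.48, limma adjusted p = 0.0152) was lost without replicate 1 or 2 of 86-1 at 27 DAF or replicate 2 or 3 of 86-1 at 17 DAF (0.0539 to 0.0779).

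**Figure D5:**
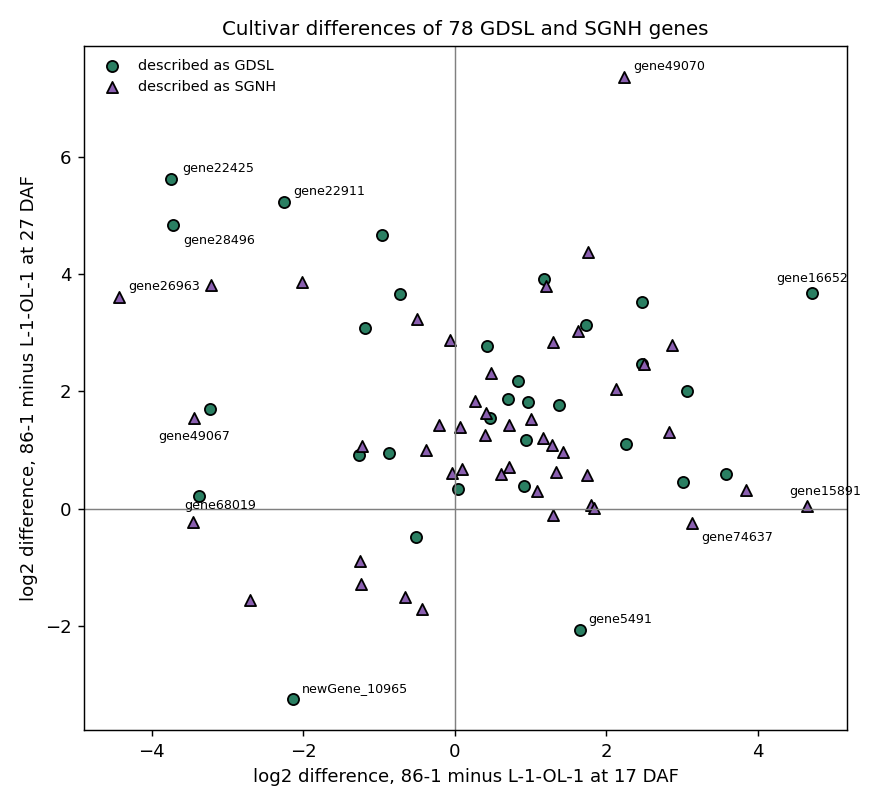
log2 difference on the log2(FPKM + 1) scale between 86-1 and L-1-OL-1 at 27 DAF (vertical) against that at 17 DAF (horizontal) for the 78 genes, with circles for GDSL and triangles for SGNH descriptions. Values against a group listed at 0 depend on the pseudocount of 1. The genes gene22425, gene28496 and gene26963 lie at the upper left (lower in 86-1 at 17 DAF, higher at 27 DAF) and gene5491 at the lower right.

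A few members separated the cultivars at both stages, in numbers near the share of all tested genes. In 3 of 78 (3.85%, against 2.2% of all tested genes) every 86-1 library was at 1 FPKM or more and every L-1-OL-1 library under 0.5. They were gene16652, described above, and the added gene models Helianthus_annuus_newGene_3957 and Helianthus_annuus_newGene_23697. Helianthus_annuus_newGene_3957 had 3.27, 4.33 and 8.28 FPKM for 86-1 at 27 DAF, 3.6, 5.35 and 4.77 for 86-1 at 17 DAF, 0.0221, 0.0281 and 0.183 for L-1-OL-1 at 27 DAF and 0, 0 and 0 for L-1-OL-1 at 17 DAF. The only member with the opposite pattern (1.28%, against 1.76%) was Helianthus_annuus_newGene_10965. All of these genes reached 1 FPKM in libraries of 1 cultivar only and passed the filter through that cultivar. These added models matched their database proteins over short stretches, 121 residues for Helianthus_annuus_newGene_3957, 93 for Helianthus_annuus_newGene_23697 and 79 for Helianthus_annuus_newGene_10965. The GDSL gene53121, identical to the database protein that gene16652 also matched best, was expressed in both cultivars at 17 DAF, with 6.05, 6.42 and 6.31 FPKM in 86-1 against 3.15, 6.46 and 4.07 in L-1-OL-1.

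Other enzymes and markers gave a setting for these values. The shares of all tested genes called higher and lower were 21.2% and 27.1% for the cultivars at 27 DAF and 20.4% and 22.3% for the stages in L-1-OL-1. Words for wall and small-molecule esterases, such as pectin acetylesterase, and for trichome birefringence-like proteins matched 50 other tested genes. No esterase activity is assigned to the trichome birefringence-like proteins. Of this esterase list, 22 were higher and 3 lower in 86-1 at 27 DAF. In L-1-OL-1, 2 were higher and 26 lower at 27 than at 17 DAF. The pectin acetylesterase gene58656 averaged 14.7 ± 1.3 FPKM in 86-1 against 0.527 ± 0.188 for L-1-OL-1 at 27 DAF (log2 difference 3.37 ± 0.37, limma adjusted p = 1.49e-05). Of 32 other lipid acyl hydrolases, such as patatin-like proteins and phospholipases, 12 were higher and 4 lower in 86-1 at 27 DAF, and 4 were higher and 18 lower at 27 DAF in L-1-OL-1. Of 32 genes matched by words for cutin, wax and cuticle, 12 were higher and 3 lower in 86-1 at 27 DAF. In L-1-OL-1, 1 was higher and 10 lower at 27 DAF. In that list gene31133, described as putative glycerol-3-phosphate acyltransferase 5, averaged 11.7 ± 2.09 FPKM in 86-1 against 0.144 ± 0.249 for L-1-OL-1 at 27 DAF (log2 difference 3.48 ± 0.43, limma adjusted p = 3.76e-05). The list takes such acyltransferases by name, so no role in cutin is assigned to it. At 17 DAF 20 genes of the esterase list were higher and 7 lower in 86-1 (40% and 14%, against 15.6% and 11.4% of all tested genes). The acyl hydrolases, at 6 and 4 (18.8% and 12.5%), lay near the shares of all genes, and the cuticle genes had 2 and 7 (6.25% and 21.9%). Between the stages in 86-1, 1 gene of the esterase list was higher and 13 were lower at 27 DAF. For the acyl hydrolases these counts were 3 and 7, and for the cuticle genes 5 and 4 (4.62% and 14.1% of all tested genes).

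The words chosen for hull and secondary wall, such as laccase and cellulose synthase, matched 82 tested genes. These took 0.0929% to 0.128% of the FPKM total in 86-1 at 27 DAF and 0.157% to 0.266% for 86-1 at 17 DAF. For L-1-OL-1 the shares were 0.0874% to 0.110% at 27 DAF and 0.0922% to 0.207% at 17 DAF. The words do not set secondary wall genes apart from others, so these shares do not measure hull tissue. Over all tested genes 21.2% were called higher and 27.1% lower for the cultivars at 27 DAF, and 15.6% and 11.4% at 17 DAF. Between the stages these shares were 4.62% and 14.1% in 86-1 and 20.4% and 22.3% in L-1-OL-1. Of the 82 genes matched by hull and wall words, 33 were higher and 14 lower in 86-1 at 27 DAF (40.2% and 17.1%). Between the stages in L-1-OL-1, 10 were higher and 33 lower at 27 DAF (12.2% and 40.2%). At 17 DAF 26 were higher and 21 lower in 86-1 (31.7% and 25.6%). Between the stages in 86-1, 10 were higher and 19 lower at 27 DAF (12.2% and 23.2%). The laccase gene65042 averaged 53.4 ± 4.45 FPKM for 86-1 at 27 DAF and was listed at 0 in each L-1-OL-1 library of that stage (limma adjusted p = 2.06e-05). The cellulose synthase gene66052 went the other way, with 2.94 ± 1.26 FPKM in 86-1 against 119 ± 39 FPKM in L-1-OL-1 (log2 difference -4.94 ± 0.64, limma adjusted p = 5.09e-05). Of the 46 storage and oil body genes 26 were higher and 3 lower in 86-1 at 27 DAF (56.5% and 6.52%). Between the stages in L-1-OL-1, 9 were higher and 23 lower at 27 DAF (19.6% and 50%). These genes ran opposite to the members at 17 DAF, with 5 higher and 12 lower in 86-1 (10.9% and 26.1%). The same was true between the stages in 86-1, with 15 higher and 4 lower at 27 DAF (32.6% and 8.7%). For the difference of stage differences 18 were more positive in 86-1 and 0 more negative (39.1% and 0%). For the members these counts were 26 and 10, against 8.5% and 13.6% of all tested genes. Of the 63 green tissue genes 3 were higher and 18 lower at 27 DAF in L-1-OL-1 (4.76% and 28.6%). In 86-1 at 27 DAF 5 were higher and 3 lower (7.94% and 4.76%), and at 17 DAF 2 were higher and 14 lower (3.17% and 22.2%). Between the stages in 86-1, 3 were higher and 1 lower at 27 DAF (4.76% and 1.59%), so the share higher was near that of all tested genes. The part of tissue proportions in the members' differences was not tested.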

How the data were processed

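RNA of 12 seed samples, extracted with the RNAprep pure Plant kit, was sequenced on an Illumina NovaSeq, per the labels' protocols. The authors deposited expression as FPKM. Per the submitters' processing notes, which give neither role nor order, the tools included RSEM 1.2.12, DESeq2 1.4.5, Bowtie2 2.2.5 and HISAT2 2.0.4. Build, annotation and filters: not given in the sources used here. Descriptions came from the authors' deposited table of protein matches, whose score was not used. Genes missing from that table could not be selected, and 0 of the 78 members could be linked to the RefSeq gene table, so no coordinates are printed.

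On log2(FPKM + 1), limma 3.58.1 (R 4.3.3) tested differences with a mean per group over all 12 libraries and a mean-variance trend, 2-sided, and adjusted by Benjamini-Hochberg over 30020 genes with FPKM of at least 1 in 3 or more libraries, after a check on simulated data. Differences are given ± standard error and levels ± SD (n = 3). Against a group at 0 throughout, no log2 difference is given in the text, except in a difference of stage differences. FPKM keep no read depth, so no counting interval is given. Members named by rule are the 8 with the highest mean, up to 5 called genes per direction and comparison reaching a mean of 5 FPKM in the higher group with no overlap of libraries, and up to 3 per direction for the difference of stage differences, 24 in all. Values of every library are not printed for all of them. Members, lists and rules were chosen with earlier results of these data known. Lists were defined by words in the descriptions, and words that brought in other proteins were dropped after reading the descriptions.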

Additional observations from a re-analysis of the deposited data

Results flagged for a closer look

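For 6 named members the change between stages was compared between the cultivars directly, in a limma fit over all 12 libraries. The difference of the log2 stage differences, 86-1 minus L-1-OL-1, was 9.37 for gene22425, 8.55 for gene28496 and 8.05 for gene26963. It was -3.71 for gene5491. The values of -4.60 for gene15891 and -3.52 for gene15892 are a description only, since both genes passed the filter through 86-1 at 17 DAF alone and had to differ there. Both gene26963 and gene15891 were listed at 0 in every library of L-1-OL-1 at 27 DAF, so their sizes depend on the pseudocount. The calls of gene22425, gene28496, gene26963 and gene5491 held without any 1 library. The libraries of 86-1 at 17 DAF were spread widely for gene22425 (18.2, 0.316 and 3.5 FPKM) and gene28496 (11, 0.0807 and 1.31 FPKM).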

How the results depend on the processing

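When the mean FPKM had to reach 5, 40 of the 78 members were left. The calls were then 32 and 23 for the cultivars at 27 and 17 DAF, 18 and 32 for the stages (86-1, then L-1-OL-1), with 21 for the difference of stage differences, from 53, 44, 32, 51 and 36. Fewer members tested sets this. Leaving out 1 library at a time gave 47 to 55, 32 to 53, 17 to 42, 43 to 55 and 31 to 43 calls in the same order. Without replicate 1 of both cultivars at 17 DAF, chosen after seeing the data, the stage comparison in 86-1 gave 49 calls, and the cause was not tested. The stage calls in 86-1 also fell by more than 1.5 times, to as few as 17, in some fits without 1 library. These were the fits without replicate 1 of 86-1 at 27 DAF and without replicate 2 or 3 of 86-1 at 17 DAF. The other totals stayed within 1.5 times those of the report. Counts by direction moved further in some settings: 30 higher at 17 DAF became 18 in a fit of those libraries alone, 5 higher in L-1-OL-1 became 3 without its replicate 2 at either stage, and 10 more negative stage differences became 17 without replicate 1 of both cultivars at 17 DAF. Of 83 called differences of the 24 named members, 66 held without any 1 library and 61 in every alternative run, and none turned its direction. The 83 include differences of gene15891, gene15892 and gene18733 against 86-1 at 17 DAF, the group through which these passed the filter. They also include those of gene56429 against 86-1 at 27 DAF, through which it passed. Most named members were also picked by their called differences, so holding in fits of the same libraries is no independent support. Whether library numbers pair the samples is not given in the labels. The correlation of deviations from group means ran from -0.226 to 0.459, over 0.1 in 4 of 18 pairs. With 3 libraries per group this cannot settle the question. With the replicate block the calls were 53, 46, 32, 52 and 42. FPKM keep no depth, so values near 0 cannot be told from 0.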

Other observations

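The SGNH genes gene71426 and gene71427, singled out after their values were seen, were on or off by library rather than by group. In FPKM gene71426 had 0, 0 and 0.162 for 86-1 at 27 DAF, 0.036, 0 and 0 for 86-1 at 17 DAF, 28.4, 0 and 0 for L-1-OL-1 at 27 DAF and 0, 11.4 and 22.1 for L-1-OL-1 at 17 DAF. The values of gene71427 were 5.4, 0 and 0 for L-1-OL-1 at 27 DAF and 0, 1.81 and 3.83 for L-1-OL-1 at 17 DAF, and it was listed at 0 in all 6 libraries of 86-1. Both were thus present in the same 3 libraries of L-1-OL-1, replicate 1 at 27 DAF and replicates 2 and 3 at 17 DAF. They passed the filter through these libraries.

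In 86-1 at 27 DAF, gene49067 was at 69.5 FPKM in replicate 2 and at 0.429 and 3.51 in replicates 1 and 3. The SGNH gene30213 and the GDSL gene30726, also singled out after their values were seen, were highest in L-1-OL-1 at 17 DAF in every library. For gene30726 these were 9.53, 13.1 and 7.31 FPKM, and no library of another group exceeded 0.345. It passed the filter through L-1-OL-1 at 17 DAF alone.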
